A study of Homo sapiens with 6 samples.

Results

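Imprinted genes are expressed mainly from the copy inherited from 1 parent, and accessible chromatin was described here at 9 of them in HCT116, a colon cancer cell line of long standing. A site was a merged interval of the 6 peak lists that overlapped H19, IGF2, KCNQ1OT1, CDKN1C, MEG3, SNRPN, PEG10, MEST or GNAS with 10 kb added on both sides. The 9 windows spanned 602 kb and held 18 sites, of 58926 merged regions in all. The assay was ATAC-seq, which marks accessible DNA by letting the transposase Tn5 cut it and attach adapters. The libraries comprised 3 labelled NuMA depletion and 3 labelled wild type, both as genotype and as treatment, all from HCT116. The sample titles carry AID for the depleted and NC for the wild-type libraries, abbreviations that the labels do not spell out. NuMA is a nuclear protein that takes part in the interphase nucleoskeleton and in building spindle poles. How NuMA was depleted, whether the line is a single clone and whether replicates were separate cultures are not stated in the labels used here, so a p-value here reflects the spread among these libraries alone, and that spread may be technical.

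Parent-specific expression rests on differentially methylated regions, stretches of CpG-rich DNA that are methylated on the copy from 1 parent. Such a region can be the promoter of a long non-coding RNA, as at KCNQ1OT1, or a set of CTCF sites that insulates a gene from its enhancers, as between H19 and IGF2. The protein ZFP57 binds the methylated letters TGCCGC and helps to keep these marks. Peak lists do not separate the parental copies, so a called site can reflect open chromatin on either copy or on both.

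The 6 libraries differed in depth and in list length. The lists held 21783 to 45892 peaks, and the shortest belonged to NuMA-depleted replicate 3. Relative depth, recovered from the deposited values on a scale with a mean of 1, was 1.07 to 1.21 in the NuMA-depleted and 0.762 to 0.975 in the wild-type libraries. Depth in reads is unknown. Median peak width over the whole list was 461, 536 and 443 bp in NuMA-depleted replicates 1, 2 and 3. It was 446, 434 and 468 bp in wild-type replicates 1, 2 and 3. The widths and lengths under peaks compared below were not scaled for this. In the windows, NuMA-depleted replicates 1, 2 and 3 had 16, 14 and 7 peaks and wild-type replicates 1, 2 and 3 had 12, 13 and 13. The group means were 12.3 ± 4.73 and 12.7 ± 0.577 peaks (SD, n = 3 each), which differed by less than the spread between libraries. NuMA-depleted replicate 3 was the lowest of all 6.

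RefSeq promoter sequences are shown for the gene starts that the results below turn on, each with 250 bases before and 50 after the start (build GRCh38.p14). The table matched 5 of the 9 genes, with 19 starts. Capitals mark TGCCGC or its reverse complement. The pair of MEST starts is shown because a site was called in all libraries at the gene's 5′ end and none further downstream. The MEG3 and GNAS starts are shown because the MEG3 5′ end had no site and those of GNAS had sites in only part of the libraries. These starts were chosen after the calls were seen.

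MEST, 5′-most start (chr7:130485925-130486224, plus strand): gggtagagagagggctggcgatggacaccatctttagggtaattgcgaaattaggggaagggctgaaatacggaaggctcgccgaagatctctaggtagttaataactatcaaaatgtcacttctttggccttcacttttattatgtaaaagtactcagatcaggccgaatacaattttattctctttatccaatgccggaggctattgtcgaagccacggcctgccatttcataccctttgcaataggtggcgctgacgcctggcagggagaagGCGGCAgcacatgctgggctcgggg

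MEST, start 5.91 kb downstream (chr7:130491835-130492134, plus strand): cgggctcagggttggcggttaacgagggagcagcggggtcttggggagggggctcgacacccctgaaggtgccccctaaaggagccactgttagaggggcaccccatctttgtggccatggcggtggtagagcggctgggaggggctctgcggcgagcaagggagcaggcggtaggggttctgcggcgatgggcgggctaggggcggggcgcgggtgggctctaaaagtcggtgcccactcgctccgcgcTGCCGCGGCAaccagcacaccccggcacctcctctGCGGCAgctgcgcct

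MEG3, 5′-most start (chr14:100825858-100826157, plus strand): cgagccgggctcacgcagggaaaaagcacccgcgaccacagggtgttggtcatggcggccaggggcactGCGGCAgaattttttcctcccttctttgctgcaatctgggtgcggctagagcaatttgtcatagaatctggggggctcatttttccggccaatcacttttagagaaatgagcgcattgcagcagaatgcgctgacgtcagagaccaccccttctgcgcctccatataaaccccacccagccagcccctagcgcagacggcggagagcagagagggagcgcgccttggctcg

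GNAS, 5′-most start (chr20:58839498-58839797, plus strand): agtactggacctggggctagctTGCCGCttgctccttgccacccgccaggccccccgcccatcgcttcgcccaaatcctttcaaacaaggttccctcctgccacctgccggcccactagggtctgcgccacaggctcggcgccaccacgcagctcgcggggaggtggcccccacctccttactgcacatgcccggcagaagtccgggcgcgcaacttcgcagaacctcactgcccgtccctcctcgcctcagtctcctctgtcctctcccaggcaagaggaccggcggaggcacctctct

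GNAS, start 49.4 kb downstream (chr20:58888930-58889229, plus strand): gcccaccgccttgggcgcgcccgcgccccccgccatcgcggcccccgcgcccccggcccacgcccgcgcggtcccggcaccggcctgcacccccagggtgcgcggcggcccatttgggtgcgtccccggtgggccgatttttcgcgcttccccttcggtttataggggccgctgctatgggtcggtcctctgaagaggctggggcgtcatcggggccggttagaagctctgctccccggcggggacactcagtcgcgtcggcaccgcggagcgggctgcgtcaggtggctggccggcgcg

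TGCCGC, searched on both strands, occurred in 16.7% of all 35116 promoters of the table. It occurred 3 times at the downstream MEST start, where 2 copies overlap each other, and once at the 5′-most start of MEST, MEG3 and GNAS. The MEST copy at the 5′-most start overlapped a match to GGNGGCAG, a part of the CTCF core held by 16.7% of promoters and also found at the 5′-most GNAS start. No copy was found in the 300 bases at the downstream GNAS start, which had 43 CG dinucleotides, more than 95.0% of promoters. The downstream MEST start had 25, the 5′-most starts of GNAS, MEG3 and MEST had 21, 19 and 13, and the median promoter had 14. TATAAA, found in 11.5% of promoters, occurred at the MEG3 start and at the downstream GNAS start. GGGCGG, the Sp1 box, was in 45.0% of promoters and in the downstream MEST and the 5′-most GNAS sequences. GCGCATGCG, the NRF1 motif, was in 1.92% of promoters and at another MEST start, 0.172 kb from the 5′-most one, where its 2 matches overlap each other. AANATGGC, bound by YY1, was in 6.58% of promoters and in none of the 5 sequences shown. A match is a description of these letters only.

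Of the 18 sites, 6 (33.3%) were called in all 6 libraries, beside 28.9% of all merged regions. They lay in 6 different windows, those of H19, IGF2, KCNQ1OT1, MEG3, PEG10 and MEST. A further 10 sites were called in 2 to 5 libraries and 2 in a single library (11.1%, against 25.1% of all regions). CDKN1C and GNAS had sites but none in every library, and SNRPN had none in any. By position, 10 sites overlapped the gene interval, 4 lay upstream and 4 downstream. Gene ends are those of the rule, rounded to 1 kb, and no exon annotation of the files' build (hg19, as all site positions here) was used. The sites were merged from 76 peaks, 1 of them outside its window. These peaks were of modest strength within their own lists. Their median list percentile by q was 30.9, 25 lay above the 50th percentile, and their summits held 7 to 49 fragments with a median of 21.5. Folds, the authors' enrichment at the summit over local background in each list, ran from 3.10 to 10.7.

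**Figure D1:**
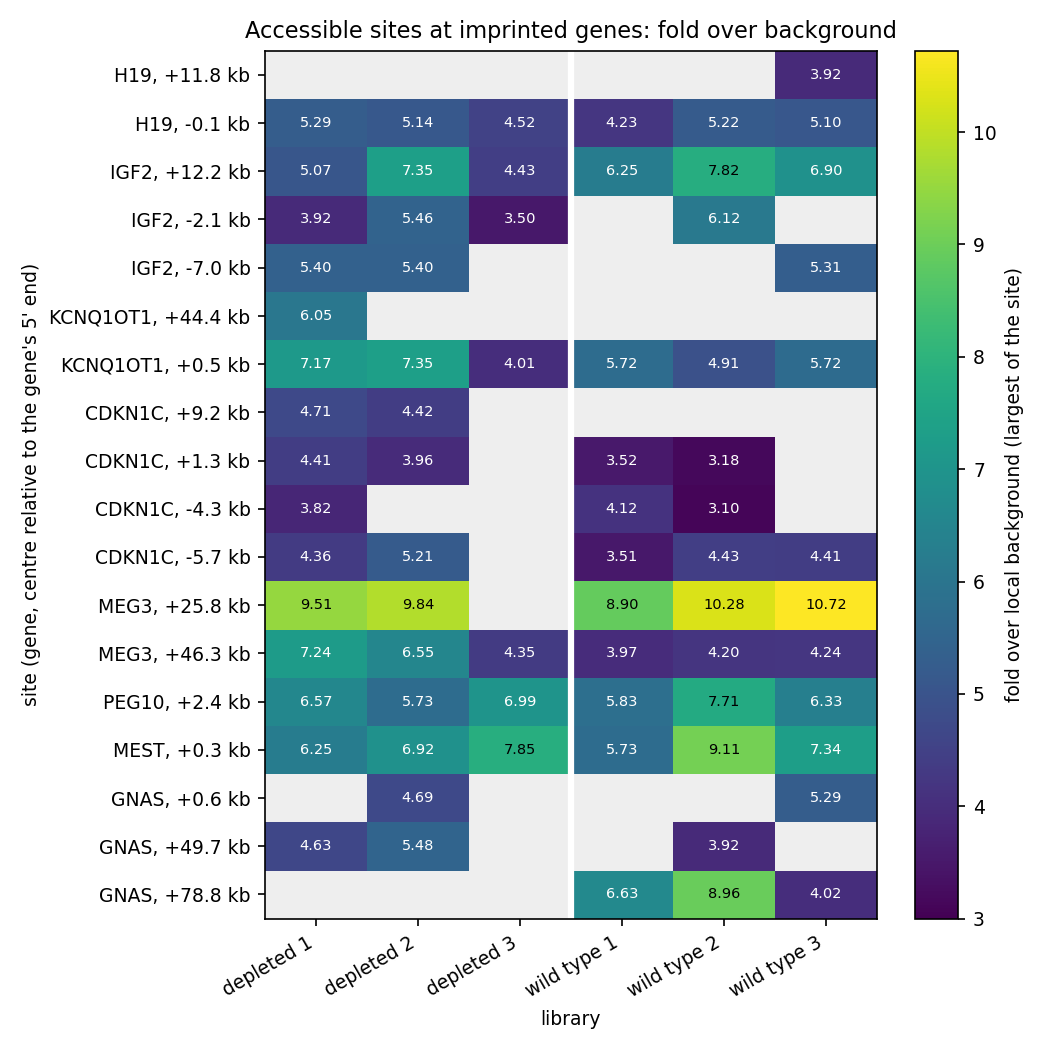
Fold over local background for each of the 18 sites (rows, named by gene and distance of the site's centre from the gene's 5′ end in kb) in each library (columns, NuMA-depleted left and wild-type right of the white line). Grey means that no peak was called. Only 6 rows are filled throughout, and the column of NuMA-depleted replicate 3 has 7 filled cells.

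H19 and MEG3 are long non-coding RNAs expressed from the maternal copy. The H19 site covered the gene's 5′ end, on chromosome 11 at 2019148 to 2021034. Its width was 1105, 1871 and 805 bp in NuMA-depleted replicates 1, 2 and 3 and 809, 445 and 317 bp in wild-type replicates 1, 2 and 3. The fold was 5.29, 5.14 and 4.52 in the NuMA-depleted and 4.23, 5.22 and 5.10 in the wild-type libraries. The groups overlapped only in that wild-type replicate 1, at 809 bp, was wider than NuMA-depleted replicate 3, at 805 bp. The −log10 q was 8.99, 10.6 and 6.18 in the NuMA-depleted and 5.33, 7.51 and 7.20 in the wild-type libraries. Mean width was 1260 ± 550 bp against 524 ± 255 bp (SD, n = 3 each), and the two-sided exact permutation test gave p = 0.2. NuMA-depleted replicate 2, the widest here, also had the largest median peak width of all the lists, 536 bp. The smallest p this test allows with 3 libraries in each group is 0.1. Without NuMA-depleted replicate 3, or without wild-type replicate 1, the widths did not overlap. As these libraries make the only overlap, this follows from the choice of library and is not read as a result. A second H19 peak, 11.6 to 11.9 kb downstream of the 5′ end at 2008113 to 2008361, was called in wild-type replicate 3 alone, 249 bp wide with a fold of 3.92 and a −log10 q of 3.58.

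MEG3 had no site at its 5′ end, whose promoter is printed above. In the window, no library had a peak from 101282000 to 101317463 on chromosome 14, a stretch of 35.5 kb that holds that end. The strongest site of all 18 lay inside the gene, 25.5 to 26.1 kb from the 5′ end, at 101317464 to 101318053. Its fold was 9.51 and 9.84 in NuMA-depleted replicates 1 and 2 and 8.90, 10.3 and 10.7 in wild-type replicates 1, 2 and 3. NuMA-depleted replicate 3 had no call there. The 5 summits lay within 6 bp of each other, and the peaks stood between the 83.8th and 88.4th percentile of their lists. The −log10 q was 26.8 and 32.0 in the 2 NuMA-depleted and 19.5, 24.5 and 22.2 in the wild-type libraries. The widths were 342 and 407 bp against 495, 325 and 466 bp. At this site and at 1 near CDKN1C the only library with no call was NuMA-depleted replicate 3 (11.1% of the 18, beside 8.69% of all regions).

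The site downstream of MEG3 was the only 1 of the 18 whose length under peaks was higher in all NuMA-depleted than in all wild-type libraries (5.56%, beside 2.75% of all regions). Among the 17009 regions called in all 6 libraries, to which this site belongs, the share was 4.09%. The site lay on chromosome 14 at 101337616 to 101338942, 45.6 to 46.9 kb from the gene's 5′ end. Of its 1327 bp, 385 fell inside the window, which ends at 101338000. Of its 6 summits, 5 lay beyond that end, as did the whole peak of wild-type replicate 2. The region therefore counts as a site called in all libraries only through merging with the wider peaks, and most of the length compared lies outside the window. Without the outlying peak 5 sites were shared by all libraries. The groups did not overlap at this site there either, which is fixed in advance. The peak left out belongs to the group with the lower lengths. Its width was 740, 1327 and 1115 bp in NuMA-depleted replicates 1, 2 and 3 and 222, 358 and 542 bp in wild-type replicates 1, 2 and 3. All 3 NuMA-depleted libraries were thus wider. The means were 1061 ± 297 bp and 374 ± 161 bp (SD, n = 3 each), a difference of 687 bp. The exact permutation test gave p = 0.1, two-sided, the smallest possible here, and 1 after Benjamini-Hochberg adjustment over all 58926 regions. The fold was 7.24, 6.55 and 4.35 in the NuMA-depleted and 3.97, 4.20 and 4.24 in the wild-type libraries. The −log10 q was 20.1, 19.2 and 6.40 against 3.89, 3.83 and 4.06. In their own lists the wild-type peaks were near the bottom, at the 4.95th to 7.35th percentile, and the NuMA-depleted peaks were at the 75.6th, 67.2nd and 28.5th.

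The NuMA-depleted libraries were the deeper ones, so the fragments at this MEG3 site were also scaled by depth, a measure chosen after seeing the data. The summit pileup, recovered in whole fragments, was 39, 40 and 21 in NuMA-depleted replicates 1, 2 and 3 and 13, 11 and 12 in wild-type replicates 1, 2 and 3. The lowest NuMA-depleted and the highest wild-type value were not resolved at this depth, since the exact 95% Poisson interval was 13.0 to 32.1 for the 21 fragments and 6.92 to 22.2 for the 13. Divided by relative depth, the values were 36.3, 33.2 and 18.8 against 13.3, 12.7 and 15.7, and the groups still did not overlap. Fragment length, taken as the smallest peak width, was 213, 264 and 223 bp against 203, 190 and 222 bp. The scaling does not adjust for it, which holds for the shares below as well. Of the 17005 regions called in all 6 libraries with a recovered pileup in each, 0.606% were higher in all NuMA-depleted libraries by this measure and 5.87% lower. Of the 6 shared sites here, 1 was higher and 0 were lower. Leaving out 1 library changed this count, but non-overlap is then easier to reach, so the changes are not read as results. PEG10 and MEST were lower without wild-type replicate 1, IGF2 was lower without NuMA-depleted replicate 2, and KCNQ1OT1 was higher without NuMA-depleted replicate 3.

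**Figure D2:**
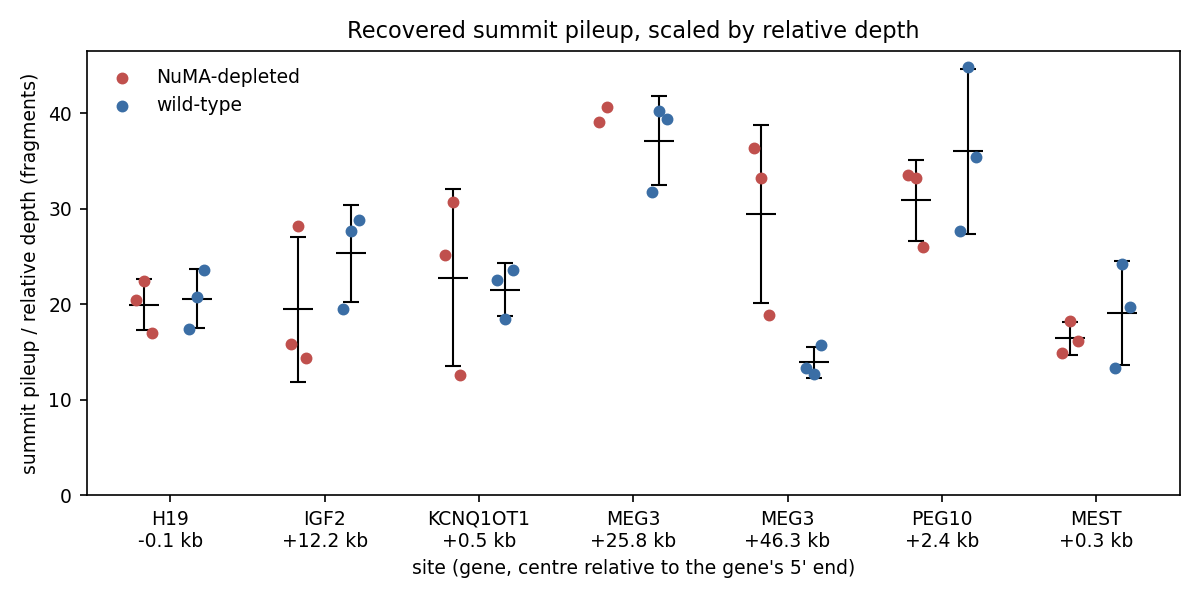
Summit pileup divided by relative depth (fragments, vertical axis) at the 6 sites called in all libraries and at the MEG3 site inside the gene (horizontal axis, gene and distance from its 5′ end). Points are libraries and black marks the mean and SD of groups with 3 values. Only at the site 46.3 kb from the MEG3 5′ end, with 18.8 to 36.3 against 12.7 to 15.7, do the groups not overlap.

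IGF2 encodes a fetal growth factor expressed from the paternal copy, and CDKN1C an inhibitor of cyclin-dependent kinases expressed from the maternal copy. The shared IGF2 site lay inside the gene on chromosome 11 at 2158374 to 2159235, 11.8 to 12.6 kb from the 5′ end. Its fold was 5.07, 7.35 and 4.43 in NuMA-depleted replicates 1, 2 and 3 and 6.25, 7.82 and 6.90 in wild-type replicates 1, 2 and 3. Its width was 862, 679 and 374 bp against 471, 579 and 611 bp. Both measures overlapped between the groups, and the length under peaks gave p = 0.6 (exact permutation test, two-sided). Without NuMA-depleted replicate 3, the library that makes the overlap, the widths did not overlap, which is not read as a result. The −log10 q was 6.94, 18.5 and 5.18 in the NuMA-depleted and 9.52, 14.4 and 11.8 in the wild-type libraries.

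The position of the summit within the IGF2 site did not overlap between the groups. It was at 2158636, 2158716 and 2158634 in NuMA-depleted replicates 1, 2 and 3 and at 2158932, 2158930 and 2158883 in wild-type replicates 1, 2 and 3. The nearest summits of the 2 groups were 167 bp apart, and the means 253 bp. The other shared site with separate summits was that of KCNQ1OT1. Among regions called in all 6 libraries with 1 peak in each, 9.79% of 15746 had summits that did not overlap between the groups, so 2 of the 5 such sites here is a count over few sites. Summit position was examined after seeing the data.

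**Figure D3:**
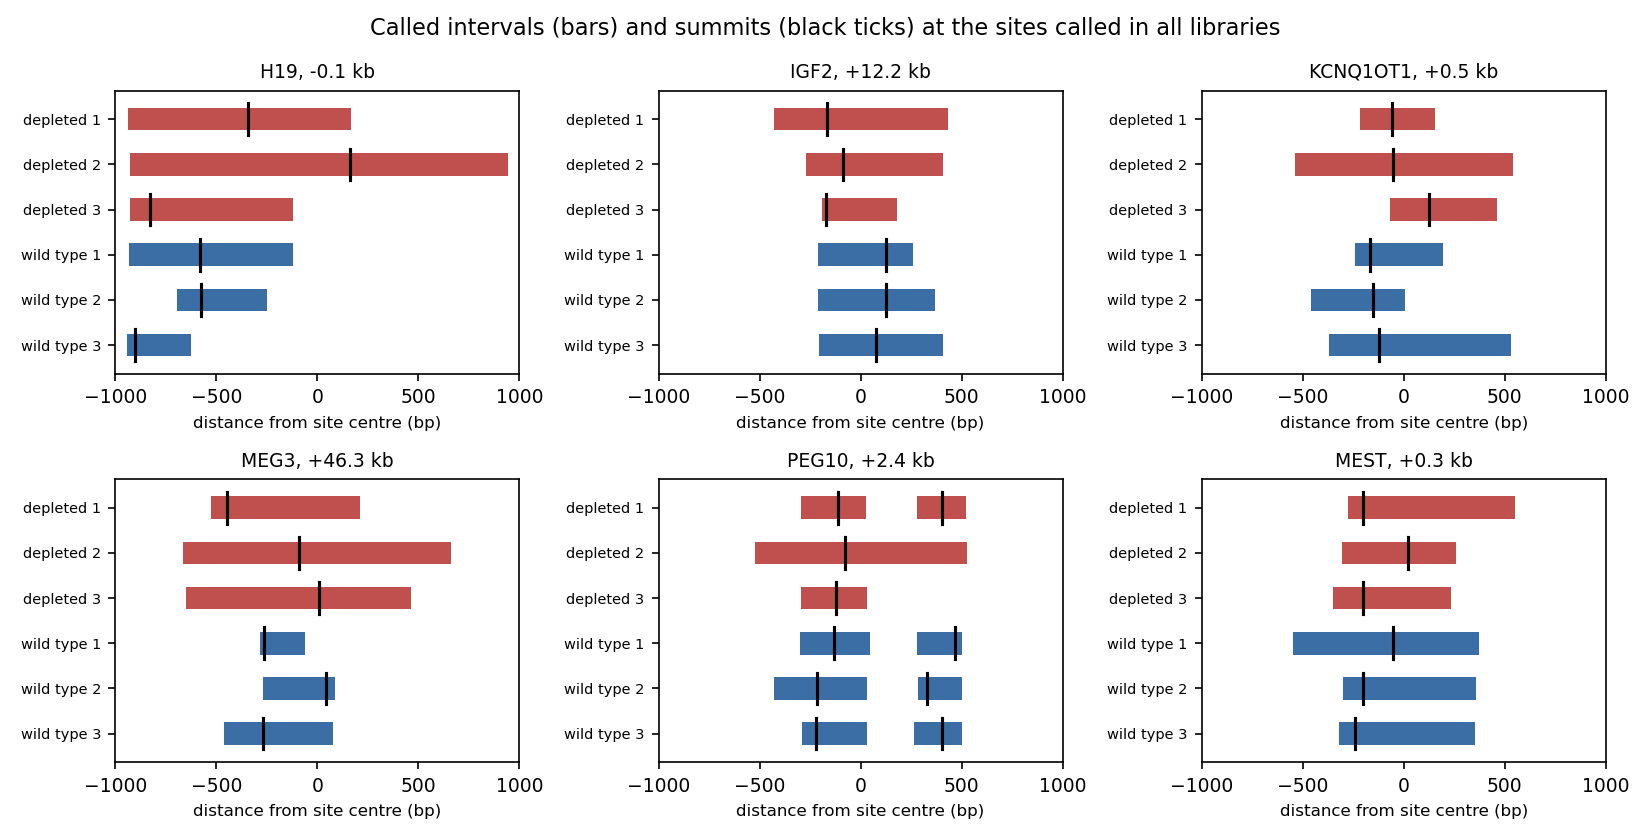
Called intervals (bars) and summits (black ticks) at the 6 sites called in all libraries, as distance from the site's centre in bp, with NuMA-depleted libraries in red and wild-type libraries in blue. The bars of the MEG3 site are longer in red, the ticks of the IGF2 and KCNQ1OT1 sites do not overlap between the colours, and the PEG10 site splits into 2 peaks in 4 libraries.

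Upstream of IGF2 a pair of sites was called in part of the libraries. That at 2172776 to 2173451, 1.78 to 2.45 kb before the 5′ end, was called in all NuMA-depleted libraries and in wild-type replicate 2. Its fold was 3.92, 5.46 and 3.50 in NuMA-depleted replicates 1, 2 and 3 and 6.12 in that wild-type library, with a −log10 q of 5.35, 13.9 and 3.32 and of 10.9. The widths were 543, 649 and 356 bp and 550 bp. The 4 summits spanned 114 bp. Without wild-type replicate 2, the only wild-type library with a call, this was a site of NuMA-depleted libraries only, which is not read as a result. The site at 2177649 to 2178292 was called in NuMA-depleted replicates 1 and 2 and wild-type replicate 3, with folds of 5.40, 5.40 and 5.31, a −log10 q of 10.6, 13.3 and 7.56, and widths of 298, 468 and 606 bp. Its 3 summits lay within 5 bp of each other.

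CDKN1C had 4 sites, none of them called in NuMA-depleted replicate 3. The site in the gene, on chromosome 11 at 2906347 to 2907110, was called in NuMA-depleted replicates 1 and 2 with folds of 4.41 and 3.96 and in wild-type replicates 1 and 2 with 3.52 and 3.18. Its −log10 q was 7.18 and 6.62 against 3.36 and 2.79, and its width 461 and 746 bp against 647 and 252 bp. These are among the weakest calls of all 18 sites, down to the 1.03rd percentile of a list.

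The site 5.19 to 6.22 kb upstream of CDKN1C, at 2913193 to 2914215, was called in the other 5 libraries. The fold was 4.36 and 5.21 in NuMA-depleted replicates 1 and 2 and 3.51, 4.43 and 4.41 in wild-type replicates 1, 2 and 3. The widths were 987 and 888 bp and 791, 566 and 749 bp, and the −log10 q was 7.63 and 15.3 and 4.60, 8.06 and 7.36. Without NuMA-depleted replicate 3, the library with no call, the widths of the groups did not overlap, which is not read as a result. The neighbouring site at 2912031 to 2912667 was called in NuMA-depleted replicate 1 and wild-type replicates 1 and 2. It had folds of 3.82, 4.12 and 3.10, a −log10 q of 5.85, 6.96 and 3.38 and widths of 486, 609 and 238 bp, with summits within 8 bp of each other. Downstream of the gene, the site at 2898534 to 2898993 was called in NuMA-depleted replicates 1 and 2 only, with folds of 4.71 and 4.42, a −log10 q of 5.14 and 4.32 and widths of 282 and 339 bp. Without NuMA-depleted replicate 3 it was therefore a site of that group only, which is not read as a result.

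KCNQ1OT1 is a long antisense RNA expressed from the paternal copy, whose promoter lies inside the potassium channel gene KCNQ1 and is the control region of the CDKN1C domain. The site at its 5′ end, on chromosome 11 at 2720981 to 2722059, was called in all libraries. The fold was 7.17, 7.35 and 4.01 in NuMA-depleted replicates 1, 2 and 3 and 5.72, 4.91 and 5.72 in wild-type replicates 1, 2 and 3. NuMA-depleted replicate 3 had the lowest and the other NuMA-depleted libraries the highest folds. The widths were 369, 1079 and 528 bp against 434, 465 and 900 bp, with p = 0.8 (exact permutation test, two-sided), and the −log10 q was 14.6, 19.9 and 3.97 against 9.68, 6.32 and 8.26. The summits were at 2721460, 2721465 and 2721646 in the NuMA-depleted and at 2721353, 2721367 and 2721396 in the wild-type libraries. The groups were 64 bp apart at the nearest. The remaining site of the window, 44.3 to 44.6 kb into the gene at 2677447 to 2677725, was called in NuMA-depleted replicate 1 alone, 279 bp wide with a fold of 6.05 and a −log10 q of 7.20.

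PEG10, derived from a retrotransposon, and MEST, which encodes a protein of the hydrolase fold, are both expressed from the paternal copy. PEG10 had 1 merged site, on chromosome 7 at 94286900 to 94287948, 1.90 to 2.95 kb from the 5′ end. It consisted of 2 separate peaks in NuMA-depleted replicate 1 and in all wild-type libraries. NuMA-depleted replicate 2 had a single peak over the whole 1049 bp, and NuMA-depleted replicate 3 had the left peak only.

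The left PEG10 peak was 321 and 324 bp wide in NuMA-depleted replicates 1 and 3 and 347, 463 and 324 bp in wild-type replicates 1, 2 and 3. Its fold was 6.07 and 6.99 and 5.20, 7.71 and 6.33, and its −log10 q 14.8 and 14.6 and 9.35, 21.2 and 12.8. The right peak was 241 bp wide in NuMA-depleted replicate 1 and 225, 220 and 239 bp wide in wild-type replicates 1, 2 and 3, with folds of 6.57 and 5.83, 4.80 and 5.89 and a −log10 q of 17.2 and 11.7, 8.61 and 11.1. The joined peak of NuMA-depleted replicate 2 had a fold of 5.73 and a −log10 q of 16.9. In total the peaks covered 645 ± 370 bp in NuMA-depleted and 606 ± 66.8 bp in wild-type libraries (SD, n = 3 each), and the two-sided exact permutation test gave p = 1.

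The MEST site covered the gene's 5′ end, on chromosome 7 at 130125796 to 130126891, that is 0.204 kb before to 0.891 kb after it. The fold was 6.25, 6.92 and 7.85 in NuMA-depleted replicates 1, 2 and 3 and 5.73, 9.11 and 7.34 in wild-type replicates 1, 2 and 3. NuMA-depleted replicate 3 was the highest of its group here and at the PEG10 site, whereas it was the lowest at the shared H19, IGF2, KCNQ1OT1 and MEG3 sites. The widths were 823, 567 and 580 bp against 920, 663 and 672 bp, with p = 0.5 (exact permutation test, two-sided). Without NuMA-depleted replicate 1, the library that makes the overlap, the widths did not overlap, the NuMA-depleted ones being the narrower. This is not read as a result. The −log10 q was 8.55, 12.3 and 11.3 against 6.60, 15.2 and 9.72. No library had a peak from 130126892 to 130157000. The RefSeq starts of MEST printed above lie 5.91 kb apart within their own build, so the CG-richer start falls in a stretch where no peak was listed. This places starts by distance from the gene's 5′ end and not by coordinates, since the builds differ.

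**Figure D4:**
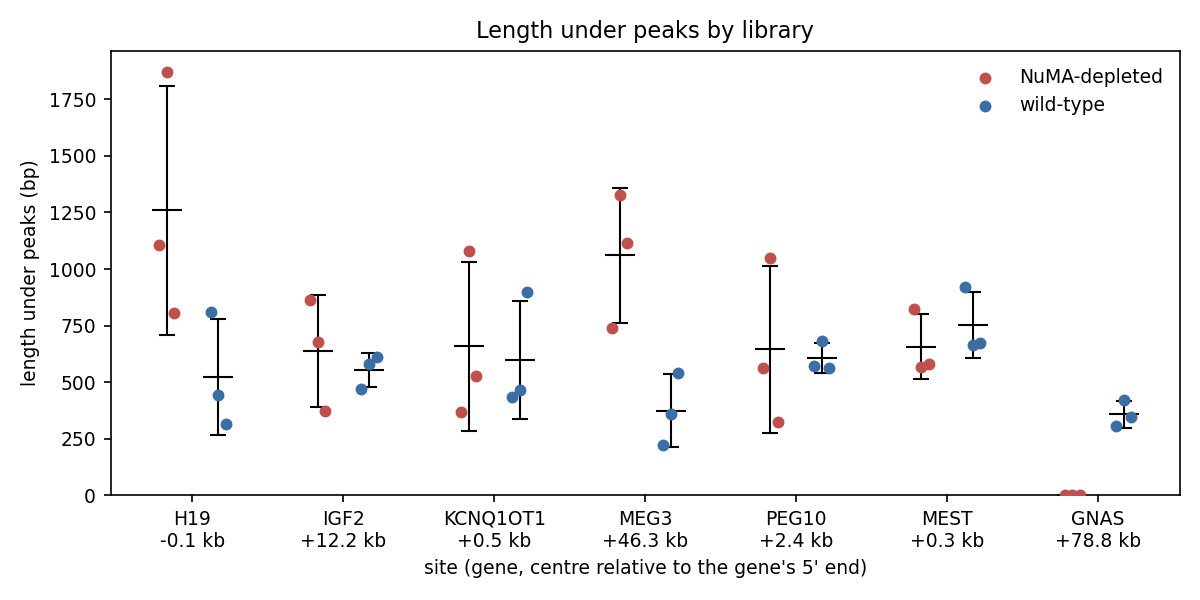
Length under peaks in bp (vertical axis, from 0) at the 6 sites called in all libraries and at the site downstream of GNAS (horizontal axis, gene and distance from its 5′ end). Points are libraries and black marks the group mean and SD. Groups do not overlap at the MEG3 site, with 740 to 1327 bp against 222 to 542 bp, and at the GNAS site, with 0 bp against 305 to 422 bp.

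GNAS encodes the stimulatory G protein alpha subunit and, from other starts, transcripts of either parental copy. Its window held the only site of the 18 that was called in all wild-type and no NuMA-depleted libraries (5.56%, beside 0.592% of all regions). No site was called in all NuMA-depleted and no wild-type libraries, which held for 0.625% of all regions. The wild-type site lay beyond the gene's 3′ end, on chromosome 20 at 57492572 to 57493095, 78.6 to 79.1 kb from the 5′ end. The fold was 6.63, 8.96 and 4.02 in wild-type replicates 1, 2 and 3, the −log10 q 8.29, 12.7 and 2.70, and the width 305, 422 and 347 bp. Replicate 3 was the weakest, at the 0.880th percentile of its list. With a −log10 q of 5 or more required this was no longer a site of all wild-type libraries, and with equal numbers of peaks per library it was called in wild-type replicate 2 alone.

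This GNAS site was also the only 1 with length under peaks lower in all NuMA-depleted libraries (5.56%, beside 2.17% of all regions). With calls in all wild-type and no NuMA-depleted libraries, this follows from the calls and is not a second result. The means were 0 and 358 ± 59.3 bp (SD, n = 3). The two-sided exact permutation test gave p = 0.1, which such calls fix in advance, with an adjusted p of 1 over all regions. Its summits held 14, 16 and 7 fragments in wild-type replicates 1, 2 and 3, with an exact 95% interval of 2.81 to 14.4 for the lowest. Absence from a list means that no peak passed the caller's threshold, not that the DNA was closed. The NuMA-depleted libraries, where it was not called, had the higher relative depth. NuMA-depleted replicate 3 nevertheless had the shortest list and no peak anywhere in the GNAS window. Why the site was not called in these libraries was not tested.

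The other GNAS sites lay near RefSeq starts. That at 57414410 to 57414736, at the 5′ end within the rounding of the gene's position, was called in NuMA-depleted replicate 2 and wild-type replicate 3. Its folds were 4.69 and 5.29, its −log10 q 4.73 and 5.11 and its widths 323 and 267 bp. The site at 57463414 to 57463932, 49.4 to 49.9 kb from the 5′ end, was called in NuMA-depleted replicates 1 and 2 and wild-type replicate 2, with folds of 4.63, 5.48 and 3.92, a −log10 q of 5.59, 9.24 and 3.63 and widths of 306, 484 and 400 bp. RefSeq starts of GNAS lie 48.7 and 49.4 kb downstream in their own build, the latter printed above. With gene ends rounded to 1 kb, which of them is nearer to this site cannot be told. Between these sites, from 57414737 to 57463413, and from 57463933 to 57492571, no library had a peak.

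SNRPN encodes a splicing protein and shares its start region with the control centre of the Prader-Willi domain, expressed from the paternal copy. No peak of any of the 6 lists used here overlapped its window of 176 kb on chromosome 15, from 25058000 to 25234000. Whether these lists are complete over this stretch is not known, so the values describe the lists used here only. The empty stretch reached far beyond the window. The nearest peak to the left ended 1170 to 1247 kb from the window, and the nearest to the right began 449 to 450 kb from it, at 25683297 to 25683856 depending on the library. The stretch without a peak was 1863, 1843 and 1872 kb in NuMA-depleted replicates 1, 2 and 3 and 1795, 1843 and 1872 kb in wild-type replicates 1, 2 and 3. The groups overlapped. Of the gaps between neighbouring peaks of a library, 0.283% to 0.786% were at least as long as this 1, and the median gap was 24.1 to 50.3 kb. The highest share belonged to NuMA-depleted replicate 3, the shortest list.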

How the data were processed

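ATAC-seq libraries of HCT116 cells, 3 per group by the genotype label, each came with 1 deposited peak list on hg19. Per the submitters' processing notes, Trim Galore, Bowtie2 2.4.1 and Picard were used. The peak caller's settings and any read shift for the transposase are not given in these sources. Whether the word combine in the deposited peak names, beside that of a MACS2 folder, means pooling is not stated there. Per peak, the deposited lists give the fold over background (a linear ratio), −log10 p, −log10 q and a score, which was not used. The smallest −log10 q was 2.00.

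Peaks of the 6 lists that shared 1 bp or more formed 1 region. Length under peaks per region was compared by a two-sided exact permutation test, adjusted over all merged regions by Benjamini-Hochberg. Folds and q belong to each list and were not tested between lists. Summit pileup and relative depth were recovered from fold and p under a Poisson model, with a whole number found for 99.986% to 99.994% of peaks (tolerance 0.01 on the −log10 p scale). This takes the smallest peak width as the fragment length used by the caller, which the sources do not state. Merging, separation, pileup recovery and the motif search were tested on simulated data. The simulated fold and p followed the same formula that the recovery inverts, and relative depth was not tested. Intervals cover counting error only.

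The rule named in full each site called in every library or in 1 group only, and in each window the site with the highest weakest −log10 q among those called in most libraries. The remaining sites are given by library as well. Members and lists were chosen with earlier results of these data known. A list of other imprinted genes was not used, as no annotation of hg19 was at hand. Python 3.11.15, numpy 2.4.6, pandas 2.3.3 and scipy 1.17.1 were used.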

Additional observations from a re-analysis of the deposited data

How the results depend on the processing

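The site downstream of MEG3 and the site downstream of GNAS did not overlap between groups in length under peaks whichever library was left out. Their separation with all 6 libraries fixes this in advance, so it is no further support. Both lie outside the genes. With no margin there were 10 sites, 0 wild-type-only and 0 non-overlapping. With a 50 kb margin there were 45 sites, 14 of them in all libraries. With a −log10 q of 5 or more, 1 site was depleted-only (that downstream of MEG3), 0 were wild-type-only (the GNAS call ends), 1 did not overlap, and the mean difference in peaks, -0.333, turned to 1.33. At equal numbers of peaks (21783 per library) there were 10 sites, 1 in all libraries, 1 depleted-only (that downstream of MEG3), 0 wild-type-only and 1 non-overlapping. The mean difference was 0.667. Both settings filter by q, which was weak for the wild-type peaks downstream of MEG3, so the calls there are not separate results. Where 2 of 3 libraries sufficed, 1 site was depleted-only. Shares of all regions are not given for any of these settings, so the counts are not read as results.

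Leaving out each library gave 0 to 1 depleted-only sites: the site downstream of CDKN1C without NuMA-depleted replicate 3, and that nearest upstream of IGF2 without wild-type replicate 2. Non-overlapping sites then numbered 2 to 6, with 6 without NuMA-depleted replicate 3 and 4 without wild-type replicate 2, where the MEG3 site inside the gene, lower in NuMA-depleted libraries, and the IGF2 site at 2172776, higher in them, also separated. MEST separated, lower in them, without NuMA-depleted replicate 1. With 1 library left out, non-overlap and group-only calls are easier to reach than with 3 in each group. The shares of all regions at these settings are not given, so these counts, and the single cases named above, are not read as results. The mean difference in peaks ranged from -2.17 to 2.33, and was 2.33 without NuMA-depleted replicate 3. Scaled pileup, non-overlapping at 1 site, was so at 2, 2 and 3 sites without NuMA-depleted replicates 2 and 3 and wild-type replicate 1. It was so at 0 with a −log10 q of 5 or more, with equal numbers, with no margin, and with the MEG3 peak outside its window left out (chosen after seeing the data). In these settings the site downstream of MEG3 was no longer among the sites called in all libraries, which this measure needs, so its pileup was not compared again. Non-overlapping summits numbered 1 with a −log10 q of 5 or more and 0 at equal numbers. The sites lost there were likewise no longer called in every library. With the replicate block, 5 sites had all same-numbered differences of 1 sign (H19, IGF2 at 2172776 and MEG3 downstream higher, MEST and GNAS downstream lower), beside 11.4% of all regions. The replicate numbers are not stated to pair libraries, and deviations of same-numbered libraries correlated at -0.0159, 0.0437 and 0.0396, with NuMA-depleted replicate 1 closest to wild-type replicate 2. The cause of these changes was not tested. Summits of 7 to 49 fragments limit which differences between libraries can be resolved.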
